A study of Homo sapiens with 6 samples.

Results

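The 37 genes described here encode the subunits of integrins and laminins. They comprised 18 integrin alpha chains, 8 integrin beta chains and 11 laminin chains, out of 19899 genes in the deposited table. They were matched by gene symbol, and each of the 37 symbols was found in the table.

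Integrins are receptors that span the cell membrane as pairs of an alpha chain and a beta chain. The pair decides which matrix protein is bound, and in most integrins the short tail of the beta chain is linked to actin through talin, kindlin and other adaptors. Laminins are large secreted trimers of an alpha, a beta and a gamma chain, and they form the sheet on which a basement membrane is built. In epithelia, laminin receptors of the integrin family hold the basal side of the cells to that sheet.

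RNA was measured in COV434, an established line of ovarian tumour cells. The study counts it among its models of SCCOHT, a small cell cancer of the ovary that comes with hypercalcemia. That cancer lacks BRG1, the product of SMARCA4 and a motor subunit of the SWI/SNF chromatin remodeler. Cells received a neo control plasmid (Control, n = 3) or the BRG1 plasmid PBJ5-BRG1 (BRG1, n = 3), each with pBABE-puro, which carries puromycin resistance. The study names pCMV-neo and pCDNA3-neo as controls, and which of them these cells received is not given in the sources used here. Both groups were put on puromycin at 2 to 3 µg/ml from 24 h after transfection and were taken after 3 days. Expression of BRG1 from a plasmid in one cell line is the model here, and the level reached is not the level of the gene's own promoter. Samples are numbered 1 to 3 in each group. Nothing in the labels says whether the numbers stand for separate cultures, so p-values measure the spread between these samples, which may be technical.

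Libraries held between 29699741 and 63613710 estimated counts, and BRG1 sample 3 was the shallowest. SMARCA4 stood at 31.6, 36.7 and 33.3 CPM (counts scaled to a library of 1000000) in Control samples 1 to 3 and at 2315, 1714 and 1728 CPM in BRG1 samples, plasmid transcripts included. Its log2 fold change was 5.82 ± 0.17 (SE). Of 7 granulosa cell markers, FOXL2, AMHR2, FSHR and NR5A1 were at or near 0 in the 6 samples. AMH and INHA were tested and not called, and CYP19A1 was called higher (log2 fold change 3.74). The summed level of these markers ranged from 6.40 to 10.2 CPM in Control and from 13.9 to 19.6 CPM in BRG1 samples. Mitochondrial genes took 5.18% to 6.00% of counts in Control and 4.13% to 4.61% in BRG1 samples, and the part of this difference in the results below was not tested.

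Whether the integrin and laminin genes change with BRG1 was asked in a quasi-likelihood test of edgeR fitted across all genes. Genes with an adjusted p under 0.05 (Benjamini-Hochberg, over the 14246 genes tested) are referred to as called. Of the 37 members, 30 had enough counts for the test. The other 7 were ITGAD, ITGAL, ITGAM, ITGAX, ITGB2, ITGB6 and LAMB4. Among the tested members, ITGA10, ITGA11, ITGB7, ITGB8 and LAMB3 had few counts in Control and passed the count filter only through their BRG1 samples. These members could hardly have come out lower. Of the 30, 16 were called higher with BRG1, 0 were called lower and 14 were not called. Among all tested genes, 9.57% were called higher and 1.02% lower. The members called higher made up 53.3% of those tested. By edgeR, 0 members were lower at an unadjusted p under 0.05, a count for which the share of all genes was not taken. DESeq2 also called 0 lower.

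The median log2 fold change of the 30 tested members was 1.13, against -0.04 for all tested genes, and 25 of the 30 lay above 0. In 18 members every BRG1 sample was above every Control sample, and in 0 members the reverse held. Of all tested genes, 15.9% had BRG1 samples entirely above Control samples. The share of all genes with the reverse was not taken, so that count of 0 has no background beside it. The median of the members and their counts above 0 and without overlap rest partly on members that passed the filter only through their BRG1 samples. With the replicate number as a block, 18 members were called higher and 0 lower, where 13.7% and 5.68% of all genes were called. DESeq2 called 17 members higher, where 11.0% of all genes were called higher and 1.84% lower. The 16 members of the edgeR result were among the calls of both fits. ITGB7 was added in both fits, and ITGA9 was added with the block. Without Control sample 2, 10 members were called higher, and without BRG1 sample 3, 18 were. In these fits 1028 and 1795 of all genes were called higher, so the count over all genes moved the same way.

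**Figure D1:**
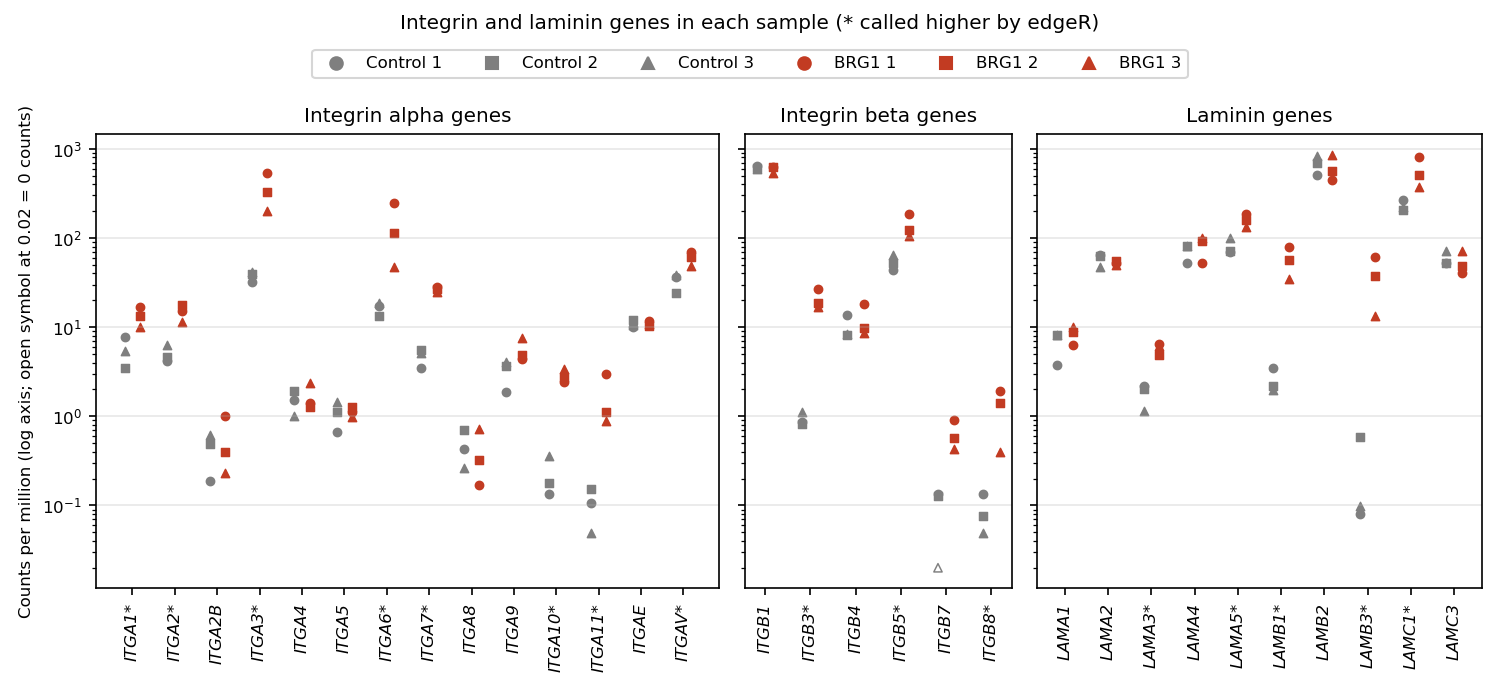
CPM (log axis) of the 30 tested members in Control samples 1 to 3 (grey) and BRG1 samples 1 to 3 (red), with 1 symbol for each sample and an asterisk at each of the 16 members called higher by edgeR. The 3 BRG1 symbols lie above the 3 Control symbols in 18 members, while the symbols of both groups overlap in ITGB1 and LAMB2.

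Among integrin alpha chains, 8 of 14 tested members were called higher and 0 lower, with a median log2 fold change of 1.06. The genes called were ITGA1, ITGA2, ITGA3, ITGA6, ITGA7, ITGA10, ITGA11 and ITGAV. They include the chains that form laminin receptors (ITGA3, ITGA6 and ITGA7) and those that form collagen receptors (ITGA1, ITGA2, ITGA10 and ITGA11). This division by ligand is textbook knowledge applied after the values were seen, and it was not tested.

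ITGA3 pairs with ITGB1 in a receptor for epithelial laminins and is annotated on the plus strand of chromosome 17 at 50055968 to 50090481 (GRCh38). It stood at 31.7, 39.1 and 41.2 CPM in Control samples 1 to 3 and at 537, 326 and 199 CPM in BRG1 samples. The groups did not overlap, and BRG1 sample 1 was the highest. The mean was 9.47 times higher with BRG1, a log2 fold change of 3.24 ± 0.35 (SE, edgeR adjusted p = 0.000875). Taken within the replicate numbers, the fold was 16.9, 8.33 and 4.82.

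ITGA6 pairs with ITGB1, or with ITGB4 in hemidesmosomes, and is annotated on the plus strand of chromosome 2 at 172427354 to 172506459. Control samples held 17.3, 13.3 and 18.7 CPM, and BRG1 samples held 246, 114 and 46.8 CPM. The BRG1 samples were spread widely, but the lowest was still above each Control sample. BRG1 samples differed from Control by a log2 fold change of 3.04 ± 0.54 (SE, edgeR adjusted p = 0.00873). Within the replicate numbers the fold was 14.2, 8.61 and 2.5. Without BRG1 sample 1 the log2 fold change was 2.30, and without Control sample 2 the edgeR adjusted p was 0.0567.

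ITGA7 forms the laminin receptor best known from skeletal muscle. Its values were 3.45, 5.58 and 5.13 CPM in Control and 28.2, 26.4 and 24.6 CPM in BRG1 samples. Unlike in ITGA3 and ITGA6, the BRG1 samples lay close together. This gave a log2 fold change of 2.48 ± 0.21 (SE, edgeR adjusted p = 0.000336).

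The collagen receptor chains pair with ITGB1. ITGA1 stood at 7.66, 3.44 and 5.41 CPM in Control and 16.9, 13.3 and 9.98 CPM in BRG1 samples, a log2 fold change of 1.28 ± 0.33 (SE, edgeR adjusted p = 0.0465). ITGA2 stood at 4.18, 4.65 and 6.25 CPM in Control and 15.3, 17.8 and 11.3 CPM in BRG1 samples, a log2 fold change of 1.56 ± 0.25 (SE, edgeR adjusted p = 0.0053). Neither gene had overlapping groups. Exons of ITGA1 share 13.2% of their bases with other genes. PELO among them lies on the same strand, and ITGA2-AS1 and PELO-AS1 lie on the opposite strand. The libraries do not keep strand, so some of these counts could have been shared between the genes.

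The other members of that group, ITGA10 and ITGA11, came from very low levels. ITGA10, a chain known from cartilage, stood at 0.134, 0.18 and 0.361 CPM in Control and 2.41, 2.74 and 3.35 CPM in BRG1 samples. ITGA11, known from fibroblasts, stood at 0.107, 0.154 and 0.0492 CPM in Control and 2.95, 1.12 and 0.886 CPM in BRG1 samples. Control samples held between 2.8 and 21.6 counts of these genes, so their folds carry large counting error. The log2 fold change was 3.58 ± 0.43 (SE, edgeR adjusted p = 0.00146) for ITGA10 and 4.05 ± 0.67 (SE, edgeR adjusted p = 0.00641) for ITGA11. Without BRG1 sample 1 the log2 fold change of ITGA11 was 3.32. ITGA10 was the called member in which BRG1 sample 3 was the highest of the BRG1 samples.

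ITGAV pairs with several beta chains in receptors for vitronectin and related proteins. It stood at 36.4, 23.8 and 38.8 CPM in Control and 69.0, 60.9 and 48.1 CPM in BRG1 samples. The groups did not overlap, but Control sample 3 and BRG1 sample 3 were close. Its log2 fold change was 0.85 ± 0.21 (SE, edgeR adjusted p = 0.0446). ITGA1 and ITGAV passed the threshold by little. ITGA1 lost its call without Control sample 2 or 3 or BRG1 sample 1 or 2 (edgeR adjusted p between 0.118 and 0.141), and ITGAV without any sample except BRG1 sample 3 (edgeR adjusted p between 0.0594 and 0.145).

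The 6 alpha chains that were tested and not called were ITGA2B, ITGA4, ITGA5, ITGA8, ITGA9 and ITGAE. ITGAE, the partner of ITGB7 in a receptor for E-cadherin, stood at 9.93, 12.1 and 10.5 CPM in Control and 11.7, 10.2 and 10.9 CPM in BRG1 samples. Its groups overlapped, with a log2 fold change of 0.01 ± 0.17 (SE, edgeR adjusted p = 0.981). ITGA2B, ITGA4, ITGA5 (the fibronectin receptor chain) and ITGA8 were between 0.170 and 2.36 CPM in the 6 samples, with overlapping groups.

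ITGA9, whose receptor binds tenascin-C among other ligands, stood at 1.87, 3.65 and 4.10 CPM in Control and at 4.37, 4.81 and 7.55 CPM in BRG1 samples. The groups did not overlap, yet the gene was not called (log2 fold change 0.79 ± 0.36 SE, edgeR adjusted p = 0.28). With the replicate number as a block it was called, with a log2 fold change of 0.82 and an edgeR adjusted p of 0.0398.

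The alpha chains of leukocytes, ITGAD, ITGAL, ITGAM and ITGAX, were too low to test. ITGAD and ITGAM held at most 5.0 counts in any sample and ITGAL at most 9.6. ITGAX held 1.7, 1.0 and 1.0 counts in Control and 24.1, 11.5 and 0.9 counts in BRG1 samples, and at this depth BRG1 sample 3 could not be told apart from Control. The shared beta partner of these chains, ITGB2, held at most 7.3 counts.

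Among the integrin beta chains, 3 of 6 tested members were called higher and 0 lower, with a median log2 fold change of 2.19. ITGB7 and ITGB8 were tested only because of their counts in BRG1 samples, and this median rests partly on them. The genes called were ITGB3, ITGB5 and ITGB8, which all pair with ITGAV, as beta chains that were not called also do. This grouping by partner was not tested. ITGB1, the beta chain with the most alpha partners, was not called.

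ITGB3 forms the vitronectin receptor with ITGAV and is annotated on the plus strand of chromosome 17 at 47253827 to 47313743. Control samples held 0.857, 0.822 and 1.12 CPM, and BRG1 samples held 26.9, 18.8 and 16.9 CPM. The groups were far apart and each was narrow. The mean was 22.4 times higher with BRG1, a log2 fold change of 4.47 ± 0.27 (SE, edgeR adjusted p = 0.000101). Within the replicate numbers the fold was 31.4, 22.9 and 15.1. Another gene model on the same strand covers 33.2% of the exonic bases of ITGB3, so some of these counts could have been shared between the models. Its other alpha partner, the platelet chain ITGA2B, was not called (log2 fold change 0.36 ± 0.64 SE, edgeR adjusted p = 0.823).

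ITGB5, the chain of a further vitronectin receptor, stood at 43.3, 52.0 and 64.3 CPM in Control and 188, 122 and 106 CPM in BRG1 samples. The groups did not overlap, with a log2 fold change of 1.38 ± 0.24 (SE, edgeR adjusted p = 0.00783). ITGB8, whose receptor takes part in the activation of latent TGF-beta, stood at 0.134, 0.0771 and 0.0492 CPM in Control and 1.92, 1.42 and 0.394 CPM in BRG1 samples. BRG1 sample 3 was well below the other BRG1 samples and still above Control. The log2 fold change of ITGB8 was 3.89 ± 0.71 (SE, edgeR adjusted p = 0.0101), with 2.9 to 4.8 counts in each Control sample. Without Control sample 2 or 3 its edgeR adjusted p was 0.0584 or 0.0554.

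ITGB1 (minus strand of chromosome 10, 32887273 to 33005792) stood at 641, 612 and 595 CPM in Control and at 619, 617 and 540.0 CPM in BRG1 samples, and the groups overlapped. The log2 fold change was -0.06 ± 0.10 (SE, edgeR adjusted p = 0.82). ITGB4, the partner of ITGA6 in hemidesmosomes, stood at 13.5, 8.17 and 8.28 CPM in Control and 18.1, 9.77 and 8.67 CPM in BRG1 samples (log2 fold change 0.29 ± 0.34 SE, edgeR adjusted p = 0.708). Sample 1 was the highest of ITGB4 in both groups.

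ITGB7, the partner of ITGA4 and ITGAE, stood at 0.134, 0.128 and 0 CPM in Control and 0.912, 0.576 and 0.427 CPM in BRG1 samples. The groups did not overlap, and the log2 fold change was 3.00 ± 0.83 (SE, edgeR adjusted p = 0.065). The gene was called with the replicate block (edgeR adjusted p = 0.0221) and by DESeq2 (adjusted p = 0.0185), and without BRG1 sample 3 (edgeR adjusted p = 0.0447). Exons of ZNF740 on the opposite strand cover 42.3% of its exonic bases, and reads of the 2 genes there cannot be told apart. ITGB6 was not tested and held at most 7.2 counts in any sample.

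**Figure D2:**
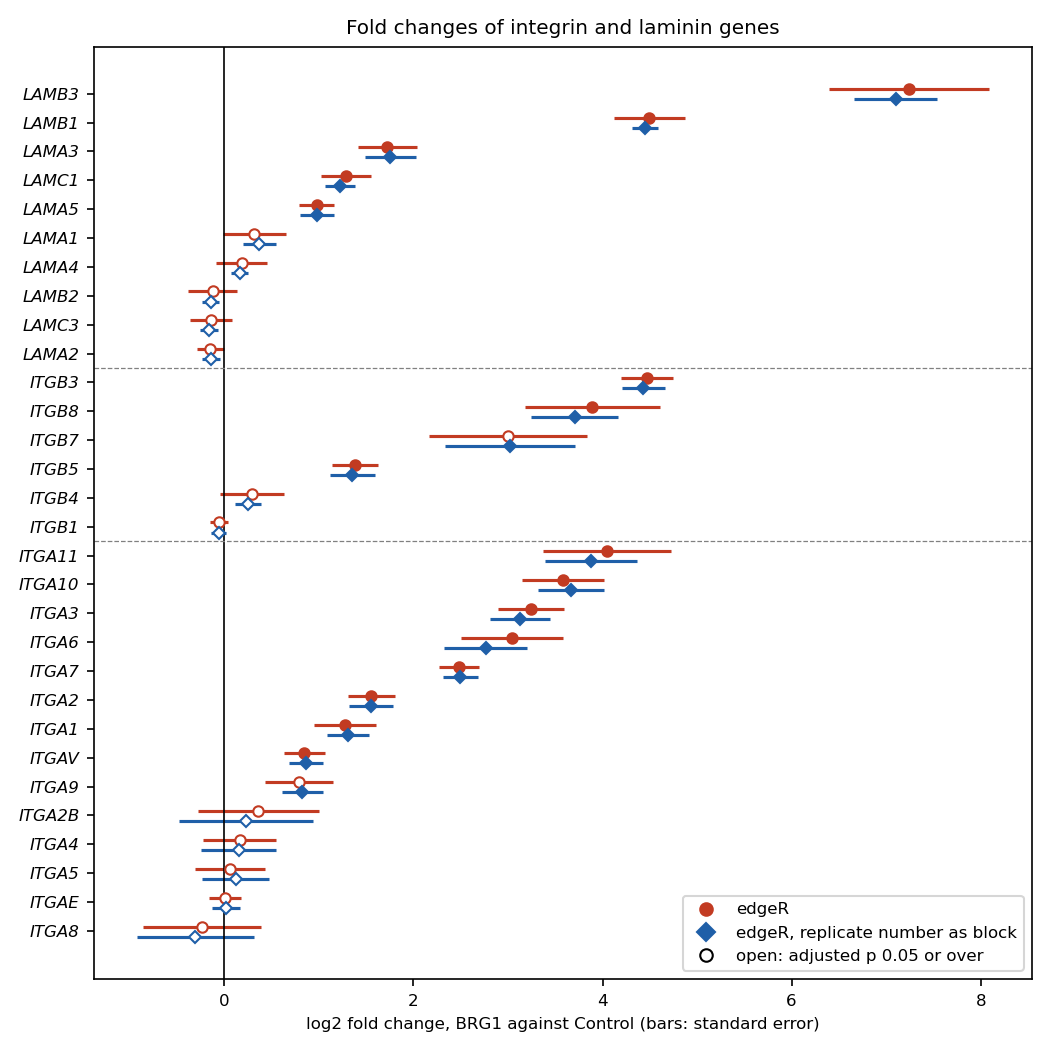
log2 fold change with its standard error for the 30 tested members, laminins on top, beta chains in the middle and alpha chains below, from edgeR without a block (red circles) and with the replicate number as a block (blue diamonds), filled where the adjusted p was under 0.05. The estimates of both fits lie close together, LAMB3 is the farthest to the right at 7.24, and ITGA9 and ITGB7 are filled with the block alone.

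Of the laminin genes, 5 of 10 tested members were called higher and 0 lower, with a median log2 fold change of 0.65. They were LAMA3 and LAMA5 among the alpha chains, LAMB1 and LAMB3 among the beta chains and the gamma chain LAMC1. Those not called were LAMA1, LAMA2, LAMA4, LAMB2 and LAMC3. LAMB4 was listed at 0 counts in the 6 samples.

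LAMB3 and LAMA3 encode chains of the laminin of epidermal and other epithelial basement membranes. LAMB3 (minus strand of chromosome 1, 209614870 to 209652425) stood at 0.0803, 0.591 and 0.0984 CPM in Control and 60.6, 37.0 and 13.5 CPM in BRG1 samples. These Control values rest on 3.1, 22.8 and 6.4 counts, and Control sample 2 was the highest of them. The mean was 144 times higher with BRG1, a log2 fold change of 7.24 ± 0.85 (SE, edgeR adjusted p = 0.00126). Within the replicate numbers the fold was 754, 62.6 and 137, so its size depends on a few Control counts. Without Control sample 2 the log2 fold change was 8.63.

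LAMA3 (plus strand of chromosome 18, 23689453 to 23956222) stood at 2.17, 2.03 and 1.13 CPM in Control and 6.51, 4.90 and 6.11 CPM in BRG1 samples, and the groups did not overlap. The log2 fold change was 1.72 ± 0.31 (SE, edgeR adjusted p = 0.00973). The change of LAMA3 was far smaller than that of LAMB3.

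Among the called members that could be searched, LAMA3 and LAMB3 had the letters of an AP-1 motif before an annotated start. AP-1 factors of the FOS and JUN families bind the letters TGANTCA (N is any base, and the word reads alike on both strands). RefSeq promoters of build GRCh38.p14 were given for 26 of the 37 members, and the 250 bases before each start were searched on both strands. The called members ITGA3, ITGA7 and ITGB3 had no promoter given and were not searched. The AP-1 letters were in 2 of 13 called members and in 0 of 13 members not called. Counted by window, 2 of 33 windows of the members (6.06%) held them, 2 of 19 among called members, and 6.57% of 35116 promoters of all genes did, so the members' share was near the background. The related CRE letters TGACGTCA were in 0 of the 26 members and in 1.65% of all promoters. The letters carry no evidence on binding in these cells. The windows that held AP-1 letters are shown 5′ to 3′ on the strand of the gene, with the matches in capitals. Of the LAMB3 window the 20 bases next to the start are exonic in the annotation and are left out.
LAMA3, chr18:23872770-23873019, plus strand: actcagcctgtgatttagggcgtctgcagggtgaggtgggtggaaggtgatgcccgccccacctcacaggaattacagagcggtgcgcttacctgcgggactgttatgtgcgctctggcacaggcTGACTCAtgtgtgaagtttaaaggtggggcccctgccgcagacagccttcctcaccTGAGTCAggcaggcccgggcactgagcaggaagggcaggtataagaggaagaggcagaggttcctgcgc
LAMB3, chr1:209651395-209651624, minus strand: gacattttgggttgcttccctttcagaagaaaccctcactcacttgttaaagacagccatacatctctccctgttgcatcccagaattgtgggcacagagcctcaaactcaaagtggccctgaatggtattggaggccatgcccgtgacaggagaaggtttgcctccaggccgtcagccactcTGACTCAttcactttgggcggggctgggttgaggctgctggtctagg

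The LAMA3 window lies before an internal start of the gene and holds 2 matches, which begin 125 and 69 bases before that start. The LAMB3 window belongs to 1 of 3 listed starts of the gene and holds 1 match, which begins 67 bases before it, the bases left out included. The other 2 LAMB3 starts had none in their windows. The deposited values are sums over the transcripts of a gene, so they do not show which start was used.

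LAMB1 (minus strand of chromosome 7, 107923799 to 108003213) encodes a beta chain of many tissues. Control samples held 3.48, 2.16 and 1.95 CPM, and BRG1 samples held 79.3, 55.9 and 34.6 CPM. The groups were far apart. The mean was 22.4 times higher with BRG1, a log2 fold change of 4.49 ± 0.38 (SE, edgeR adjusted p = 0.000288), and within the replicate numbers the fold was 22.8, 25.9 and 17.7.

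LAMC1 (plus strand of chromosome 1, 183023420 to 183145592), the gamma chain of most laminins, stood at 264, 204 and 222 CPM in Control and at 804, 506 and 374 CPM in BRG1 samples. The groups did not overlap, and the log2 fold change was 1.29 ± 0.27 (SE, edgeR adjusted p = 0.0173). LAMA5, an alpha chain of many adult epithelia, stood at 70.3, 71.2 and 100.5 CPM in Control and at 184, 159 and 132 CPM in BRG1 samples (log2 fold change 0.97 ± 0.18 SE, edgeR adjusted p = 0.0114). Control sample 3 and BRG1 sample 3 of LAMA5 were the nearest between the groups. LAMC1 lost its call without Control sample 2 or 3 (edgeR adjusted p = 0.0896 and 0.0719), and LAMA5 without Control sample 1 or 2 or BRG1 sample 2 (edgeR adjusted p between 0.0525 and 0.0634).

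LAMB2, the beta chain that can take the place of LAMB1, stood at 511, 689 and 830.4 CPM in Control and at 448, 567 and 852 CPM in BRG1 samples. Sample 1 was the lowest and sample 3 the highest in both groups, and the groups overlapped over almost their whole range (log2 fold change -0.12 ± 0.26 SE, edgeR adjusted p = 0.856). LAMC3, a second gamma chain, showed the same order of samples, with 52.3, 53.0 and 70.9 CPM in Control and 40.5, 48.9 and 71.0 CPM in BRG1 samples. Neither was called.

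The alpha chains LAMA1, LAMA2 and LAMA4 were not called either. LAMA2, the chain of muscle and nerve basement membranes, stood at 64.8, 62.7 and 47.4 CPM in Control and 52.8, 55.6 and 49.3 CPM in BRG1 samples. LAMA4, known from vessels, stood at 52.8, 82.1 and 82.0 CPM in Control and 52.6, 93.3 and 101 CPM in BRG1 samples. Both had overlapping groups, with log2 fold changes of -0.15 and 0.19. LAMA1, a chain of early embryonic basement membranes, ranged from 3.80 to 8.22 CPM in Control and from 6.24 to 10.0 CPM in BRG1 samples (log2 fold change 0.32).

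The samples of the BRG1 group were ordered alike in most called members. BRG1 sample 1 was the highest of the 3 in 14 of 16 called members (87.5%) and BRG1 sample 3 the lowest in 14 of 16 (87.5%). Over the 1364 genes called higher, BRG1 sample 1 was the highest in 77.5% and BRG1 sample 3 the lowest in 81.4%, so the order was general. In bulk RNA a lower value can come from fewer expressing cells or from less RNA per cell, and these cannot be told apart.

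How the make-up of each class differed between groups was described from levels per length, in CPM per kilobase of the longest transcript. Summed over the alpha chains, the level was 20.1 ± 1.89 in Control against 109.9 ± 50.8 with BRG1 (SD, n = 3), a ratio of 5.48. For the beta chains the sums were 124 ± 2.43 and 143 ± 18.1, and for the laminins 180 ± 29.2 and 236 ± 13.8 (SD, n = 3). By this ratio the alpha class differed most, since the ratio was 1.15 for the beta chains and 1.31 for the laminins.

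Among alpha chains in Control, ITGA3 held 34.0% ± 3.26 of the summed level, ITGAV 20.6% ± 4.49, ITGAE 14.3% ± 2.12 and ITGA6 14.1% ± 1.98 (SD, n = 3). In BRG1 samples ITGA3 held 58.3% ± 1.5, ITGA6 19.2% ± 6.54, ITGAV 7.43% ± 2.09 and ITGAE 3.00% ± 1.35 (SD, n = 3). The share of ITGAV was thus lower in each BRG1 sample than in each Control sample although its CPM value was higher. The order of ITGA6, ITGAV and ITGAE in Control depended on the length used. With the longest transcript ITGA6 lay below ITGAV in each Control sample, and with total exon length it lay above ITGAV and ITGAE in each of them (means of 20.6%, 14.3% and 13.9%). In each BRG1 sample ITGA6 lay above ITGAV with both lengths.

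Among beta chains, ITGB1 held 88.8% ± 1.77 of the summed level in Control and 74.3% ± 4.93 with BRG1 (SD, n = 3). ITGB5 came next with 9.72% ± 2.09 and 21.6% ± 4.10 (SD, n = 3). ITGB3 held 0.127% ± 0.0233 in Control, below ITGB4, and 2.44% ± 0.329 in BRG1 samples, above ITGB4 in each sample (SD, n = 3). ITGB1 remained the main beta chain in each of the 6 samples. With total exon length in place of the longest transcript, ITGB1 held 81.2% in Control and 61.2% in BRG1 samples, and ITGB5 15.7% and 31.3%.

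Among laminins, LAMB2 held 65.5% ± 5.41 of the summed level in Control and 46.2% ± 14.1 in BRG1 samples, and LAMC1 16.6% ± 4.73 and 30.02% ± 11.5 (SD, n = 3). In BRG1 sample 1 LAMC1 (42.0%) passed LAMB2 (32.6%), whereas in BRG1 sample 3 LAMB2 (60.7%) was within the Control range. LAMB1 went from 0.220% ± 0.108 to 3.57% ± 1.41 and LAMB3 from 0.0333% ± 0.0375 to 3.67% ± 2.29 (SD, n = 3). With total exon length LAMB1 held 0.0974% and 1.56%, and LAMB3 0.0379% and 4.09%. Shares within a class were compared without a test.

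**Figure D3:**
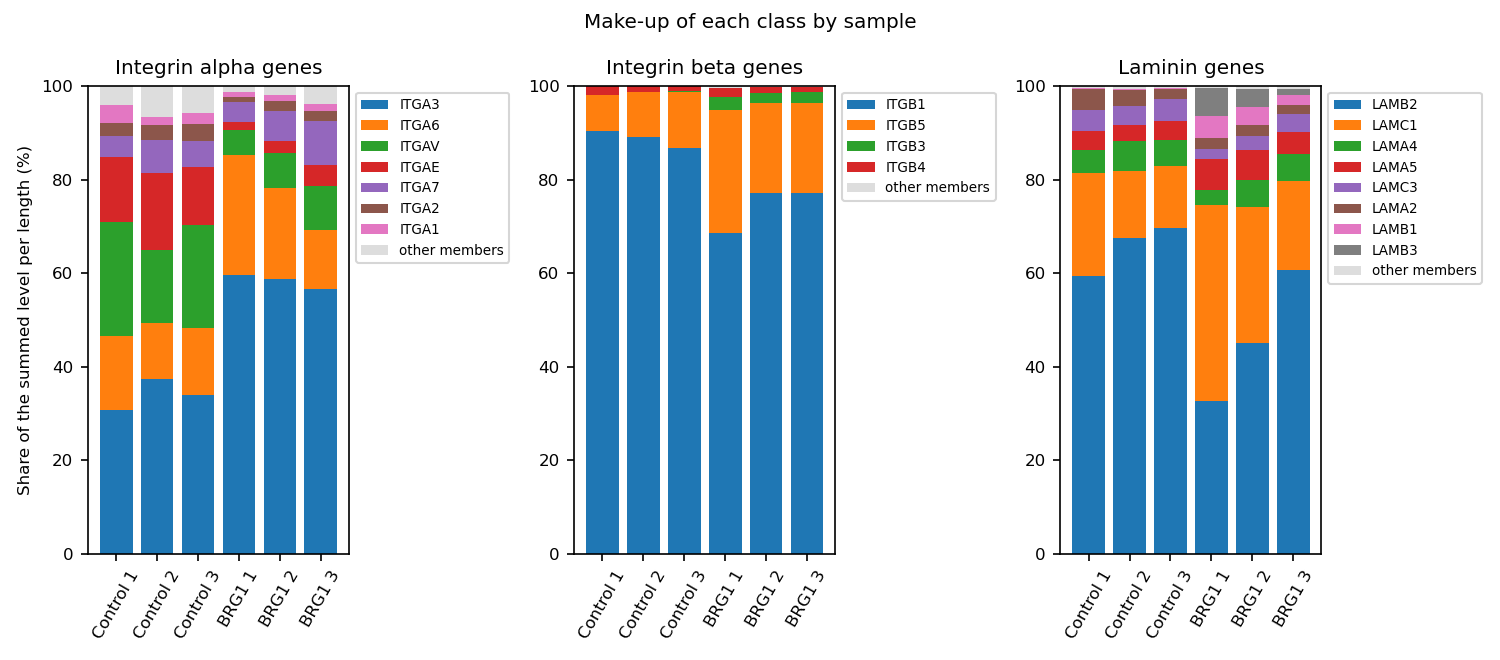
Share (%) of the summed level per length of each class taken by its members, in stacked bars for Control samples 1 to 3 and BRG1 samples 1 to 3. ITGA3 takes 30.8% to 37.3% of the alpha class in Control and 56.7% to 59.6% in BRG1 samples, ITGB1 takes the largest part of the beta class in each sample, and LAMB2 ranges from 32.6% to 60.7% in BRG1 samples.

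Other genes of the adhesion pathway were described in 4 lists. Beside them, 9.57% of all tested genes were called higher and 1.02% lower. So few genes were called lower in general that a count of 0 lower in a short list says little. Of 24 cytoplasmic adaptors, which link beta tails to actin or signal from them, 20 were tested, 5 were called higher and 0 lower. Their median log2 fold change was 0.29. Those named by the rule were TNS1 and TNS3 (tensins), PARVA (a parvin that binds ILK) and ACTN4 (an actinin). TNS1 went from 0.128 ± 0.0203 to 7.24 ± 5.01 CPM (SD, n = 3), a log2 fold change of 5.78, and TNS3 from 0.248 ± 0.14 to 5.85 ± 4.43 CPM, a log2 fold change of 4.57. PARVA and ACTN4 had log2 fold changes of 1.73 and 1.38. The fifth call was ACTN1, with a log2 fold change of 0.77. PARVA lost its call without Control sample 2 or 3, ACTN4 without Control sample 2, and ACTN1 without Control sample 1 or 3 or BRG1 sample 1 or 2 (edgeR adjusted p between 0.0519 and 0.104). Without BRG1 sample 1 the log2 fold change of TNS3 was 3.78. By edgeR the talins TLN1 and TLN2, the kindlin FERMT2, VCL (vinculin), PXN (paxillin) and PTK2 (FAK) were not called without the block, with log2 fold changes between -0.18 and 0.60. With the replicate block TLN2 (edgeR adjusted p = 0.0292) and the scaffold BCAR1 (edgeR adjusted p = 0.0354) were called higher as well.

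Of 20 ligands other than laminins, 17 were tested, 4 were called higher and 0 lower, with a median log2 fold change of 0.49. TNC encodes tenascin-C, a ligand of receptors with ITGA9 or ITGAV. It stood at 23.9, 20.7 and 18.3 CPM in Control and 1015, 854 and 343 CPM in BRG1 samples, a log2 fold change of 5.14 ± 0.42 (SE, edgeR adjusted p = 0.00024). VTN (vitronectin, bound by ITGAV with ITGB3 or ITGB5) went from 0.360 ± 0.129 to 6.92 ± 3.69 CPM (SD, n = 3), a log2 fold change of 4.30. FBN1 (fibrillin) and MFGE8 (a milk fat globule protein bound by ITGAV receptors) had log2 fold changes of 2.21 and 1.15. FBN1 lost its call without Control sample 2, and MFGE8 without any Control sample or without BRG1 sample 2 (edgeR adjusted p between 0.0567 and 0.101). Without BRG1 sample 1 the log2 fold change of FBN1 was 1.57. FN1 (fibronectin) stood at 7.02, 11.5 and 19.1 CPM in Control and 26.4, 21.2 and 19.3 CPM in BRG1 samples and was not called (log2 fold change 0.83, edgeR adjusted p = 0.218). The groups of FN1 did not overlap, though Control sample 3 and BRG1 sample 3 were close. Without Control sample 3 FN1 was called, with a log2 fold change of 1.27 and an edgeR adjusted p of 0.0389. With the replicate block 6 ligands were called higher, and SPP1 (edgeR adjusted p = 0.0199) and THBS1 (edgeR adjusted p = 0.0104) were the added ones.

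Of 12 genes of the basement membrane and its non-integrin receptors, 9 were tested, 7 were called higher and 0 lower, with a median log2 fold change of 1.87. NID2, a nidogen that links laminin to collagen IV, went from 0.347 ± 0.0554 to 58.2 ± 26.8 CPM (SD, n = 3), a log2 fold change of 7.36 ± 0.45 (SE, edgeR adjusted p = 0.000101). RTRAF on the opposite strand covers 30.7% of the exonic bases of NID2, and reads there cannot be told apart. TINAGL1 held at most 2.1 counts in a Control sample, and its BRG1 mean was at least 33.6-fold higher than 3 counts per library would be. FRAS1 and HSPG2 (perlecan) had log2 fold changes of 4.43 and 2.35. The remaining calls were the laminin receptors BCAM and DAG1 (dystroglycan) and the proteoglycan AGRN (agrin), with log2 fold changes of 1.87, 0.86 and 1.42. Without Control sample 2 the edgeR adjusted p of HSPG2 was 0.0514 and that of DAG1 was 0.0593.

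FREM2, which acts with FRAS1 in the embryonic basement membrane, lay the other way. It stood at 31.6, 29.2 and 38.0 CPM in Control and 12.8, 17.95 and 24.4 CPM in BRG1 samples, and the groups did not overlap. It was not called (log2 fold change -0.85 ± 0.24 SE, edgeR adjusted p = 0.0727) but was called lower with the replicate block (edgeR adjusted p = 0.00592) and by DESeq2 (adjusted p = 0.0115).

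Of 10 membrane partners of integrins, 10 were tested, 5 were called higher and 0 lower, with a median log2 fold change of 1.27. COL17A1, a hemidesmosome collagen, went from 0.374 ± 0.232 to 10.1 ± 5.73 CPM and the tetraspanin CD82 from 1.42 ± 0.565 to 30.1 ± 4.52 CPM (SD, n = 3). Their log2 fold changes were 4.70 and 4.39. CAV1 (caveolin) and CD47 (an integrin-associated protein) had log2 fold changes of 4.25 and 2.29, and the fifth call was the tetraspanin CD9. CD151, the tetraspanin best known as a partner of ITGA3, had a log2 fold change of 0.61 and an edgeR adjusted p of 0.089, and it was called with the block (edgeR adjusted p = 0.0104). CD81 was the other call that the block added (edgeR adjusted p = 0.0468). The hemidesmosome plakins PLEC and DST were not called.

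**Figure D4:**
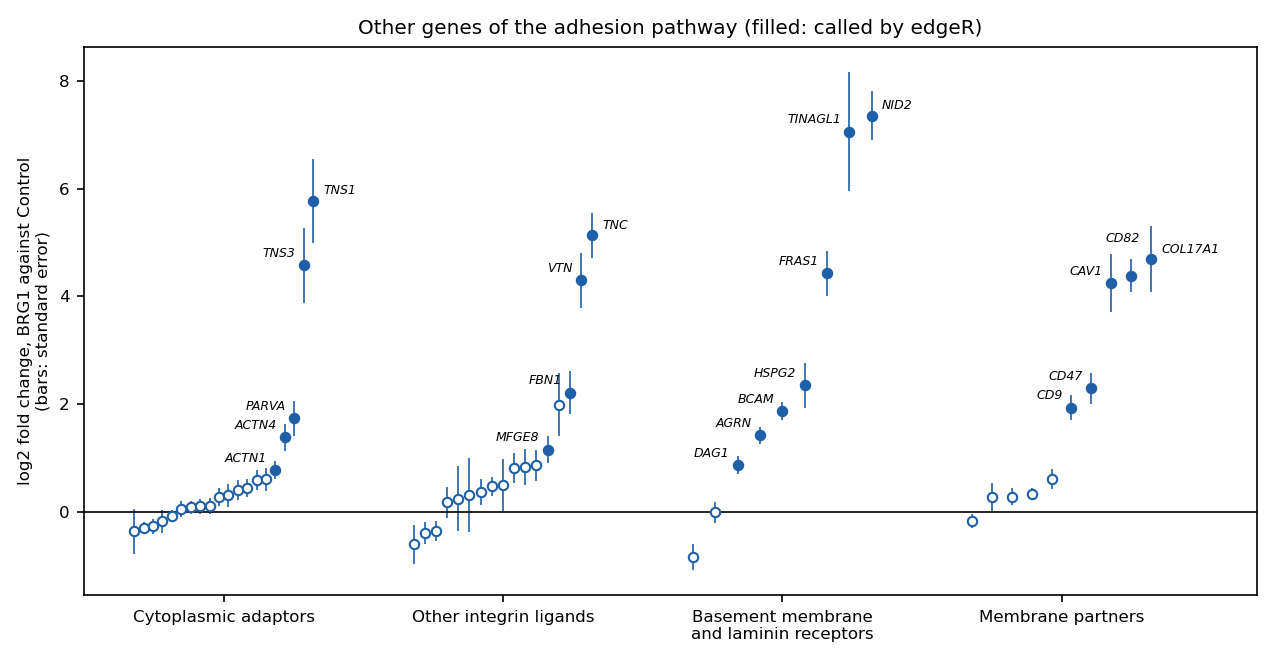
log2 fold change with its standard error for each tested gene of the 4 adhesion lists, ordered within each list, filled and named where edgeR called the gene. Of the adaptors 5 of 20 are filled, of the other ligands 4 of 17, of the basement membrane genes 7 of 9 and of the membrane partners 5 of 10, and each filled point lies above 0.

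Since ITGB3, ITGA2B and the ITGB2 family are also carried by platelets, endothelium and leukocytes, markers of these cells were read beside them. Of 8 leukocyte markers 2 were tested. PTPRC ranged from 7.39 to 15.9 CPM over the 6 samples and was not called, whereas CD3D, CD3E, MS4A1 and SPI1 held at most 3 counts in each sample. LYZ was called higher, with at most 0.0536 CPM in Control and 0.294 to 0.492 CPM in BRG1 samples (edgeR adjusted p = 0.00938, and 0.0618 without Control sample 3). A gene model on the opposite strand covers 34.7% of the exonic bases of LYZ. The summed level of the leukocyte list ranged from 7.77 to 14.7 CPM in Control and from 8.24 to 16.8 CPM in BRG1 samples. Of 5 platelet markers 3 were tested and 0 called by edgeR or DESeq2, GP9 was at 0, and the summed level ranged from 1.75 to 2.53 CPM in Control and from 2.13 to 3.29 CPM in BRG1 samples.

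Of 5 endothelial markers, 3 were called higher, where 9.57% of all tested genes were. CDH5, the endothelial cadherin, stood at 0, 0 and 0.0328 CPM in Control and 5.80, 2.47 and 0.952 CPM in BRG1 samples. TEK and TIE1 had log2 fold changes of 0.96 and 2.64 (TEK lost its call without Control sample 1 or 2, with edgeR adjusted p of 0.0574 and 0.0605), while PECAM1 and KDR were not called. PECAM1 was at most 0.821 CPM in any sample. The summed level of the list ranged from 37.6 to 57.7 CPM in Control and from 60.7 to 72.5 CPM in BRG1 samples. The part of these cell types in the values of ITGB3 and the other members was not tested.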

How the data were processed

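Poly(A) RNA of 3 Control and 3 BRG1 samples (500 ng input, libraries without strand, 78-base read pairs) was measured by RNA-seq. Per the submitters' processing notes and the study's methods, the authors checked reads with FastQC (version 0.11.5), aligned them with STAR (2.5.3a) and quantified transcripts with Salmon (0.8.2) on build hg38. For each gene symbol the authors deposited estimated counts, which tximport derived from TPM with scaling for transcript length and for library size (lengthScaledTPM). These need not be whole. Salmon shares out reads that fit several genes, so overlapping genes and near-identical copies have uncertain values.

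Estimated counts were rounded. Genes were kept by filterByExpr of edgeR (minimum count 10), which left 14246 of 18096 genes with any count. BRG1 was compared with Control by the quasi-likelihood test of edgeR (4.0.16, R 4.3.3, TMM factors), with Benjamini-Hochberg adjustment over all genes tested and a threshold of 0.05. The standard error is the log2 fold change divided by the square root of its F statistic. The study's methods name DESeq2. DESeq2 (1.42.0) is an alternative here, because on counts simulated from these samples with known changes its share of false calls exceeded the threshold, whereas that of edgeR did not. The simulated samples had no shared deviation by replicate number, and higher and lower changes were equally likely. These samples differ in both respects, so the shares of false calls may not hold for them. CPM are counts scaled to an effective library (total times TMM factor) of 1000000. Levels per length used the longest GENCODE transcript of the gene on GRCh38. Totals of 29699741 to 63613710 set the counting error. A group with at most 3 counts in each sample was taken as at the floor.

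Same-numbered samples deviated together from their group means (correlations of 0.364, 0.343 and 0.482 over 14246 genes for numbers 1, 2 and 3). Differently numbered samples had correlations from -0.384 to 0.0577. Deviations from a mean of 3 samples cancel out, so part of this contrast is built in. A pairing by number is therefore a reading of the data only. The main fit did not use it, and the fit with the replicate block is given as an alternative.

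Values in each sample were given for members called, and for members not called with a mean of at least 10 CPM in a group. The called genes with the largest absolute log2 fold change, at most 4 a list, were named from each pathway list, and genes named beyond these (ITGA9, ITGB7, FREM2, TLN1, BCAR1, FN1, THBS1, CD151, CD81 and the like) were added after their values were seen. Members, lists and rules were chosen with earlier results of these data known. Other alternatives were limma-voom (limma 3.58.1), RLE factors, other filters on low counts, stricter thresholds and leaving out each sample. Protein sequences were not used here. A marker of the leukocyte list is not reported here.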

Additional observations from a re-analysis of the deposited data

How the results depend on the processing

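For single members, 375 of 420 values under the alternatives kept their direction and their side of the threshold, 22 were no longer past it, 6 passed it newly and 17 changed sign. No called member changed sign, and 10 of the 16 stayed called in every fit run at a threshold of 0.05. The replicate block added ITGA9 and ITGB7 to the members called (18 in place of 16) and changed no other call of a member.

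Leaving out 1 sample at a time, the members called higher numbered 10 to 18, the alpha chains 5 to 9, the laminins 3 to 5, the adaptors 3 to 9, the ligands 2 to 6, the basement membrane genes called lower 0 to 1, all genes called lower 39 to 256 and all genes called higher 1028 to 1795. The smallest counts of members, alpha chains, laminins and ligands came without Control sample 2. The log2 fold changes that changed sign in these fits belonged to members not called. They ranged from -0.45 to 0.73 for ITGA2B, from -0.11 to 0.39 for ITGA4, from -0.19 to 0.33 for ITGA5, from -0.85 to 0.18 for ITGA8, from -0.053 to 0.091 for ITGAE, from -0.088 to 0.041 for ITGB1, from -0.11 to 0.56 for ITGB4, from -0.00099 to 0.43 for LAMA4, from -0.38 to 0.065 for LAMB2 and from -0.36 to 0.026 for LAMC3.

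All genes called lower (146) numbered 294 with DESeq2, 809 with the replicate block, 1035 with DESeq2 and the block, 31 at an adjusted p under 0.01 and 5 with at least a 2-fold change. With DESeq2 and the block, 2095 genes were called higher, as were 10 adaptors, 7 ligands and 8 partners, with 1 adaptor lower. At an adjusted p under 0.01, 946 of all genes were called higher. Of the members 11 remained past that threshold, with 6 alpha chains, 2 beta chains and 3 laminins. Of the other lists, 2 adaptors, 3 ligands, 6 basement membrane genes and 5 partners remained. FREM2 was the 1 basement membrane gene called lower with DESeq2, limma-voom, the block, and DESeq2 with the block. With total exon length, the mean shares in Control and BRG1 samples were 81.2% and 61.2% for ITGB1, 0.262% and 4.52% for ITGB3, 15.7% and 31.3% for ITGB5, 14.3% and 4.99% for ITGAV, 20.6% and 27.0% for ITGA6 and 0.0974% and 1.56% for LAMB1, and ITGA3 held 52.9% in BRG1 samples. The causes were not tested. Depth limits ITGA10, ITGA11, ITGB7, ITGB8 and LAMB3, whose Control samples held 0 to 22.8 counts, and the 7 members that were not tested.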
